A study of Mus musculus with 9 samples.

Results

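The comparison was between 2 mutant alleles of Zfp423 in mouse hindbrain at embryonic day 9.5, with all genes that passed a count filter as its members. Gene-level RNA-seq counts were available for 3 libraries of the d9-20 allele and 3 of the d28-30 allele, which are 6 of the 9 libraries of the study. The other 3 libraries, from wild-type (wt) littermates, were used as a reference level. All 3 genotypes were on C57BL/6N and received no treatment, per the labels. In the d9-20 allele exon 4 is deleted and the expressed protein lacks zinc fingers 9 to 20. In the d28-30 allele exons 6 and 7 are deleted and the protein lacks zinc fingers 28 to 30. The labels give neither the zygosity, the number of founder lines or embryos behind a library, nor the line from which the wt littermates came, so p-values measure the spread between these libraries, which may be technical in part. Of 48587 genes in the table, 28389 had a count and 15695 were tested.

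ZFP423 is a nuclear protein with 30 zinc fingers that binds DNA and joins several signalling pathways. The fingers in its middle are known for contact with SMAD proteins, the transducers of bone morphogenetic protein (BMP) signals, and the last fingers for contact with the EBF transcription factors of neuronal differentiation. In the hindbrain the gene is known for its part in the cerebellar midline and the choroid plexus, the ciliated epithelium that makes cerebrospinal fluid. The direct comparison asks whether expression differs between alleles that lack different parts of the same protein.

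The libraries held 16903382 to 24216412 counts. Levels are given in CPM, counts scaled to library size, and a floor of 3 counts equals 0.124 to 0.177 CPM depending on the library. The d28-30 replicate 2 stood apart. Its correlation of log values with the other 8 libraries was 0.978 to 0.988, against 0.993 for the closest pairs, and genes of the mitochondrial genome took 2.04% of its counts, against 0.886% to 1.39% elsewhere. Some gene list values are given with and without this library. Sex-linked RNA did not separate the alleles. In both, replicate 1 had 0.0504 and 0.0592 CPM of 4 Y-linked genes with 1638 and 1505 CPM of Xist, replicate 3 had 172 and 192 CPM of the Y-linked genes with under 1 CPM of Xist, and replicate 2 held both kinds of RNA. Hoxb1, a hindbrain Hox gene, was at 15.4 to 20.7 CPM in the 9 libraries. Of 20 Hox genes of paralog groups 6 to 13, which mark the trunk, 0 reached the count filter and the highest count in any library was 7.

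In the 9-library fit, edgeR's quasi-likelihood test called 0 genes between the alleles at an adjusted p of 0.05. At an unadjusted p under 0.05 there were 1504 genes, 9.58% of those tested, of which 676 (4.31%) were higher in d9-20 and 828 (5.28%) were lower. One library moved this share. It was 876 genes (5.48%) without d9-20 replicate 2, 999 (6.24%) without d9-20 replicate 1 and 1114 (7%) without d28-30 replicate 2. It was 2031 (12.7%) without d28-30 replicate 3. Limma-voom also called 0 genes. DESeq2 called 79, of which 37 were higher and 42 lower in d9-20, and limma-voom with a quality weight for each library called 88, of which 45 were higher and 43 lower. Against wt, the same edgeR fit called 26 genes in d9-20 (0.166%) and 25 in d28-30 (0.159%). The 3 libraries of one allele did not overlap the 3 of the other for 2641 genes, 16.8% of those tested. These were 1356 higher (8.64%) and 1285 lower (8.19%) in d9-20.

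The size of difference that the data leave was bounded by 95% intervals. For 10551 genes (67.2%) the whole interval lay within a 1.5-fold difference either way, and for 13717 (87.4%) within a 2-fold difference. Precision followed the level: the interval lay within 1.5-fold for 91.1% of the 9876 genes with a mean of 10 CPM or more, and for 26.7% of the 5819 genes below it. The point estimate itself passed 1.5-fold for 767 genes (4.89%) and 2-fold for 165 (1.05%). Most genes at 10 CPM or more were thus bounded within 1.5-fold, and most genes below it were not. Exceptions at 10 CPM or more include Zfp868 and Coch, described below.

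**Figure D1:**
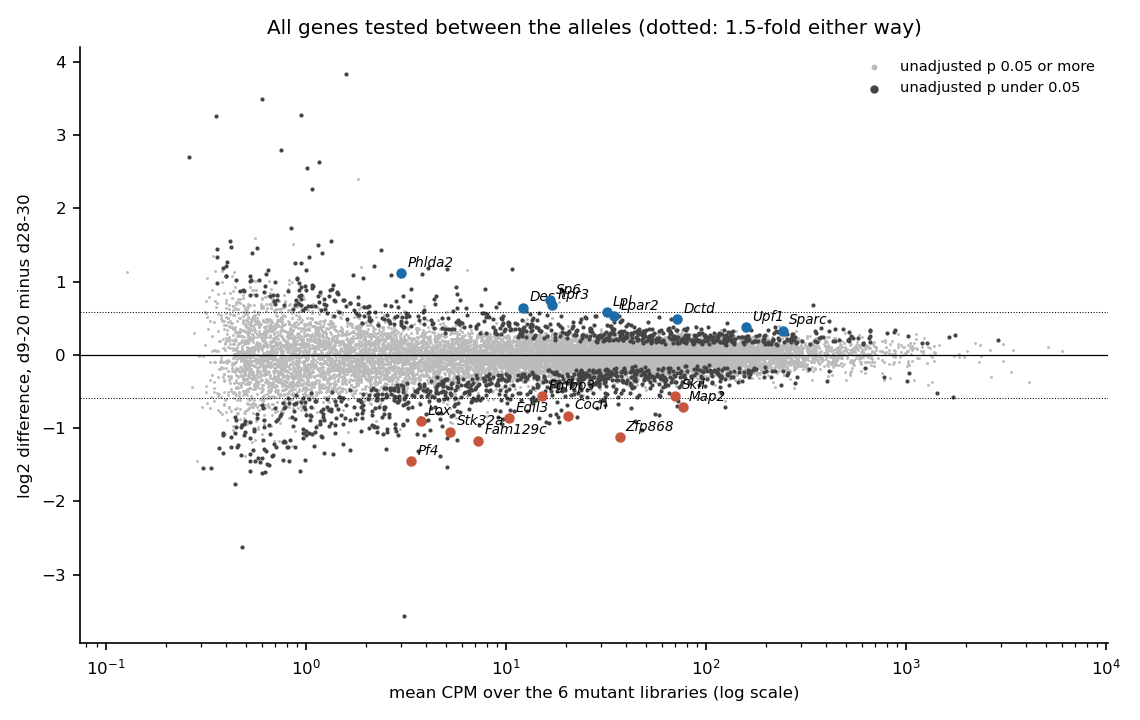
Each point is 1 of 15695 tested genes, with mean CPM over the 6 mutant libraries on a log axis and the log2 difference d9-20 minus d28-30 on the y axis. Named are the genes among the 24 of smallest p that carry a gene name, blue where higher and red where lower in d9-20. Most points lie between the dotted lines of 1.5-fold, and the spread widens below 10 CPM.

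Zfp423 itself did not separate the alleles. Its level was 155, 156 and 194 CPM in d9-20, 159, 172 and 183 CPM in d28-30, and 101, 105 and 118 CPM in wt. Every mutant library lay above every wt library, and the 2 alleles overlapped. The difference between them was -0.02 on the log2 scale (95% interval -0.24 to 0.20), while the rise against wt was 0.64 in d9-20 (adjusted p = 0.036) and 0.67 in d28-30 (adjusted p = 0.0257). The count covers the whole gene at GRCm38 chr8:87661810-87959595 (minus strand) and does not show the deleted exons.

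In the fit, 36 genes passed the threshold against wt in at least 1 allele, 15 in both, 11 in d9-20 alone and 10 in d28-30 alone. These comparisons share the wt libraries, so each gene is described here by the direct difference between the alleles. Over all genes tested, 67.2% had a direct interval within 1.5-fold and 9.58% had an unadjusted p under 0.05 between the alleles. Of the 15 genes past the threshold in both alleles, 10 had a direct interval within 1.5-fold, which is near the share over all genes. In this group 2 had an unadjusted p under 0.05 between the alleles, among them Coch. Of the 11 in d9-20 alone, 8 had an interval within 1.5-fold and 6 had an unadjusted p under 0.05. Of the 10 in d28-30 alone, 2 had an interval within 1.5-fold and 8 had an unadjusted p under 0.05. Since a gene enters the groups of 11 and 10 by differing from wt in 1 allele, the direction of these direct differences is partly fixed by the choice.

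Among the shared genes, those of dorsal BMP signalling lay close together. Msx2, a transcription factor that BMP induces at the dorsal midline, was at 16.4, 17.8 and 18.5 CPM in d9-20, 15.3, 17.5 and 18.6 CPM in d28-30 and 26.1 to 28.3 CPM in wt. Both alleles sat below every wt library and covered the same range. The direct difference was 0.04 (interval -0.18 to 0.26), with a fall against wt of -0.63 in d9-20 (adjusted p = 0.036) and -0.67 in d28-30 (adjusted p = 0.0226). Grem1, a secreted BMP antagonist, was at 15.6 to 21.9 CPM in d9-20 and 15.4 to 22.1 CPM in d28-30, against 5.66 to 8.64 CPM in wt, and its direct difference was 0.05 (interval -0.36 to 0.46).

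For Gmnc, the geminin family member that starts the multiciliated cell programme, the interval was too wide to tell. It was at 0.506, 0.606 and 0.752 CPM in d9-20, 0.236, 0.421 and 0.398 CPM in d28-30, and 7.71, 5.07 and 3.70 CPM in wt. The d9-20 libraries were all above the d28-30 libraries, at under 1 CPM, and all 6 were far below wt. The fall against wt was -3.13 in d9-20 (adjusted p = 0.00404) and -3.91 in d28-30 (adjusted p = 0.000995). Between the alleles the difference was 0.78 (interval -0.21 to 1.76, unadjusted p = 0.11), an interval that holds 0 and is wider than those of Msx2 and Grem1.

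Coch was the clearest gene that rose against wt in both alleles by unequal amounts. It encodes cochlin, a secreted matrix protein known from the inner ear, and lies at GRCm38 chr12:51593341-51605771. Its level was 15.1, 13.8 and 15.4 CPM in d9-20, 23.3, 31.0 and 24.5 CPM in d28-30, and 2.98, 3.47 and 2.93 CPM in wt. No libraries of different genotypes overlapped, and the order was d28-30 above d9-20 above wt. It rose against wt by 2.24 in d9-20 (adjusted p = 6.08e-05) and by 3.07 in d28-30 (adjusted p = 3.78e-06), and the direct difference was -0.83 ± 0.12 (SE; adjusted p = 0.121). With DESeq2 the adjusted p of that difference was 2.92e-05. It passed the threshold in 3 of 22 alternative fits, and the highest adjusted p in any fit was 0.473.

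Stk32a, a serine/threonine kinase gene, followed the order of Coch, at 2.99, 2.62 and 4.66 CPM in d9-20, 6.95, 7.41 and 6.95 CPM in d28-30, and 1.06, 1.31 and 1.49 CPM in wt. All 3 genotypes were apart. It rose against wt in d28-30 by 2.47 (adjusted p = 0.00128), stood 1.42 above wt in d9-20 (adjusted p = 0.0547), and differed by -1.05 ± 0.20 between the alleles (adjusted p = 0.236). Wnt3, a dorsal WNT ligand, was at 14.8, 13.2 and 21.4 CPM in d9-20 and 21.8 to 24.3 CPM in d28-30, against 9.39 to 11.5 CPM in wt. The d9-20 libraries again lay between wt and d28-30. It rose in d28-30 by 1.16 (adjusted p = 0.0213), and the direct difference was -0.48 (interval -0.84 to -0.13, adjusted p = 0.459). Genes apart in all 3 genotypes with both alleles above wt numbered 33 in the order d28-30 above d9-20 (0.21% of those tested) and 18 in the order d9-20 above d28-30 (0.115%).

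Of the genes that passed the threshold in d9-20 alone, several had a d28-30 level between d9-20 and wt. Des, which encodes the muscle filament protein desmin, was at 14.6, 14.2 and 15.9 CPM in d9-20, 9.90, 8.38 and 10.3 CPM in d28-30, and 5.14, 7.03 and 6.07 CPM in wt. The 3 genotypes did not overlap. It rose against wt by 1.30 in d9-20 (adjusted p = 0.00466), stood 0.65 above wt in d28-30 (adjusted p = 0.158) and differed by 0.65 ± 0.13 between the alleles (adjusted p = 0.236). Emilin2, an extracellular matrix glycoprotein gene, was at 112 to 121 CPM in d9-20, 79.6 to 96.5 CPM in d28-30 and 75.3 to 81.2 CPM in wt, with a direct difference of 0.38 (interval 0.20 to 0.55). Nrp2, a receptor for semaphorins, was at 167 to 176 CPM in d9-20, 144 to 156 CPM in d28-30 and 121 to 136 CPM in wt, with a direct difference of 0.20 (interval 0.05 to 0.35). Clmn had a direct difference of 0.29 (interval 0.11 to 0.47), and Six2, a transcription factor of mesenchyme, one of 0.20 (interval -0.03 to 0.43).

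**Figure D2:**
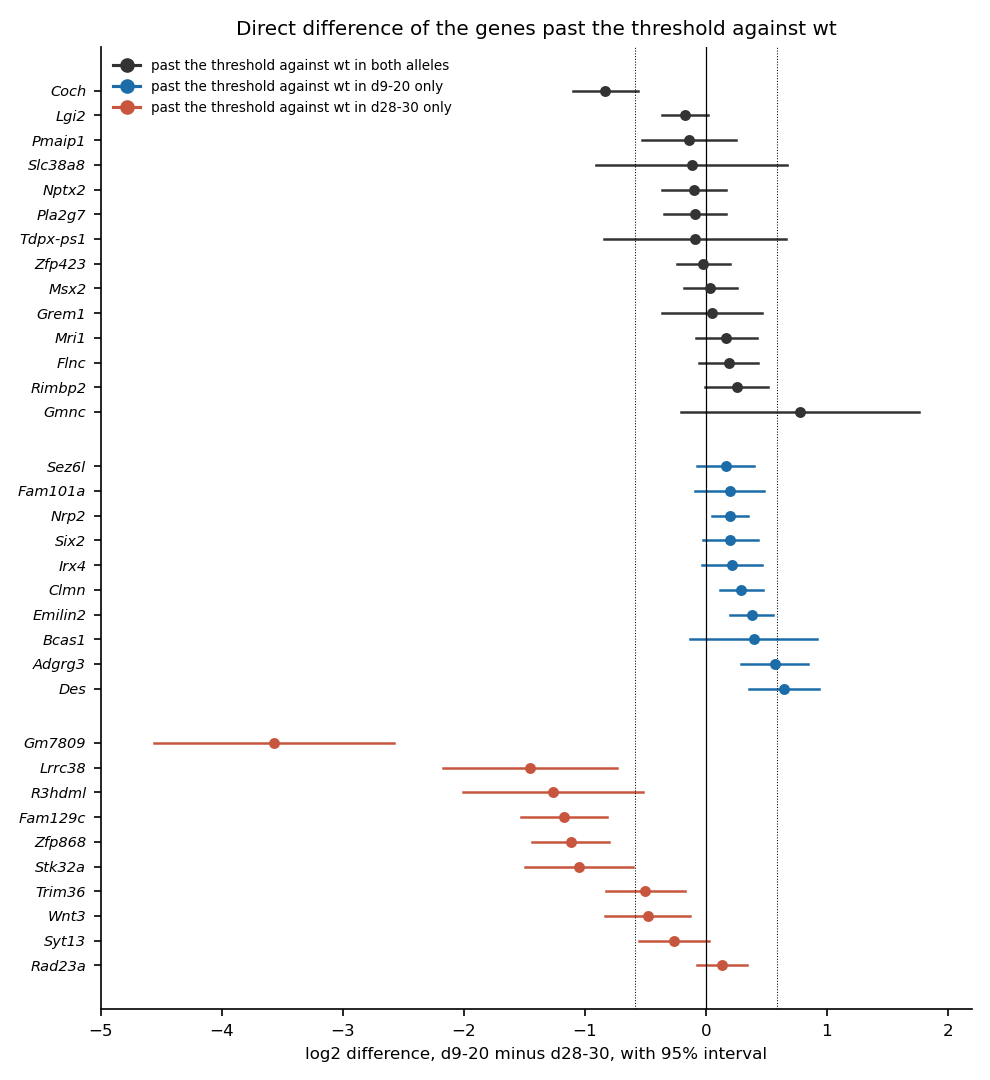
For 34 of the 36 genes past the threshold against wt, the x axis gives the direct log2 difference d9-20 minus d28-30 and its 95% interval, grouped by the allele in which the gene passed. Intervals of 19 of these genes lie within the dotted lines of 1.5-fold, beside 67.2% of all genes tested. Gm7809, Lrrc38, Fam129c, Zfp868 and Coch are among those that lie below 0.

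The 24 genes with the smallest p between the alleles, at a mean of at least 1 CPM and with no overlap, were 12 higher and 12 lower in d9-20. Their unadjusted p ran from 7.21e-06 to 0.000444 and their adjusted p from 0.063 to 0.236. All 24 were past the threshold with DESeq2 and with limma-voom with quality weights, and 0 were with limma-voom without weights. Since they were taken for their p, their differences are a description and not calls. The 2 smallest p belonged to Gm7809, a pseudogene whose reads may be shared with copies elsewhere, and Zfp868, which encodes a zinc finger protein. Zfp868 was at 23.9, 24.7 and 21.5 CPM in d9-20, 43.4, 60.6 and 47.7 CPM in d28-30, and 29.9, 24.7 and 22 CPM in wt. The d28-30 libraries stood above all others and d9-20 overlapped wt. The direct difference was -1.12 ± 0.14 (SE; adjusted p = 0.063), and the rise of d28-30 against wt was 0.99 (adjusted p = 0.0213).

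Zfp868 was not alone in that pattern. Fam129c was at 4.91, 4.69 and 3.76 CPM in d9-20, 10.6, 8.38 and 11.2 CPM in d28-30 and 3.92 to 4.96 CPM in wt, again with d28-30 apart and d9-20 within the wt range or just beside it. Its direct difference was -1.17 ± 0.16 (adjusted p = 0.0855). Lpar2, a receptor for lysophosphatidic acid, was lower in d28-30: it was at 41.0, 41.6 and 40.1 CPM in d9-20, 27.8, 28.7 and 28.7 CPM in d28-30 and 36.2 to 44.0 CPM in wt. The direct difference was 0.53 ± 0.09 (adjusted p = 0.144). Upf1, the helicase of nonsense-mediated decay, was at 171 to 188 CPM in d9-20, 131 to 146 CPM in d28-30 and 154 to 178 CPM in wt, with a direct difference of 0.38 (adjusted p = 0.236). All 4 of these genes are on chromosome 8.

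A second kind of gene had the alleles on opposite sides of wt. Such an order without overlap was seen in 38 genes, 21 with d9-20 highest (0.134% of those tested) and 17 with d28-30 highest (0.108%), and 4 of them were among the 24. Itpr3, an inositol trisphosphate receptor that releases calcium from the endoplasmic reticulum, was at 20.1, 19.3 and 23.0 CPM in d9-20, 14.0, 11.3 and 13.7 CPM in d28-30 and 14.4 to 15.2 CPM in wt. Its libraries of d9-20 were above and those of d28-30 below every wt library, with a direct difference of 0.68 ± 0.11 (adjusted p = 0.144). Sparc, a secreted collagen-binding glycoprotein gene, was at 266, 262 and 283 CPM in d9-20, 216, 202 and 227 CPM in d28-30 and 228 to 233 CPM in wt, with a direct difference of 0.33 ± 0.07 (adjusted p = 0.236). The highest d28-30 library lay just under the lowest wt library.

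Fgfbp3 and Lox had the reverse order. Fgfbp3, a secreted carrier of fibroblast growth factors (FGF), was at 11.7, 13 and 12.1 CPM in d9-20, 18.1, 18.9 and 17.5 CPM in d28-30 and 14.9 to 15.5 CPM in wt, with a direct difference of -0.57 ± 0.09 (adjusted p = 0.144). Lox, the lysyl oxidase that crosslinks collagen and elastin, was at 2.58, 2.52 and 2.77 CPM in d9-20, 4.30, 5.98 and 4.42 CPM in d28-30 and 3.47 to 3.77 CPM in wt, with a direct difference of -0.90 ± 0.17 (adjusted p = 0.216). In these 4 genes 0 of the 8 comparisons of an allele with wt passed the threshold.

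**Figure D3:**
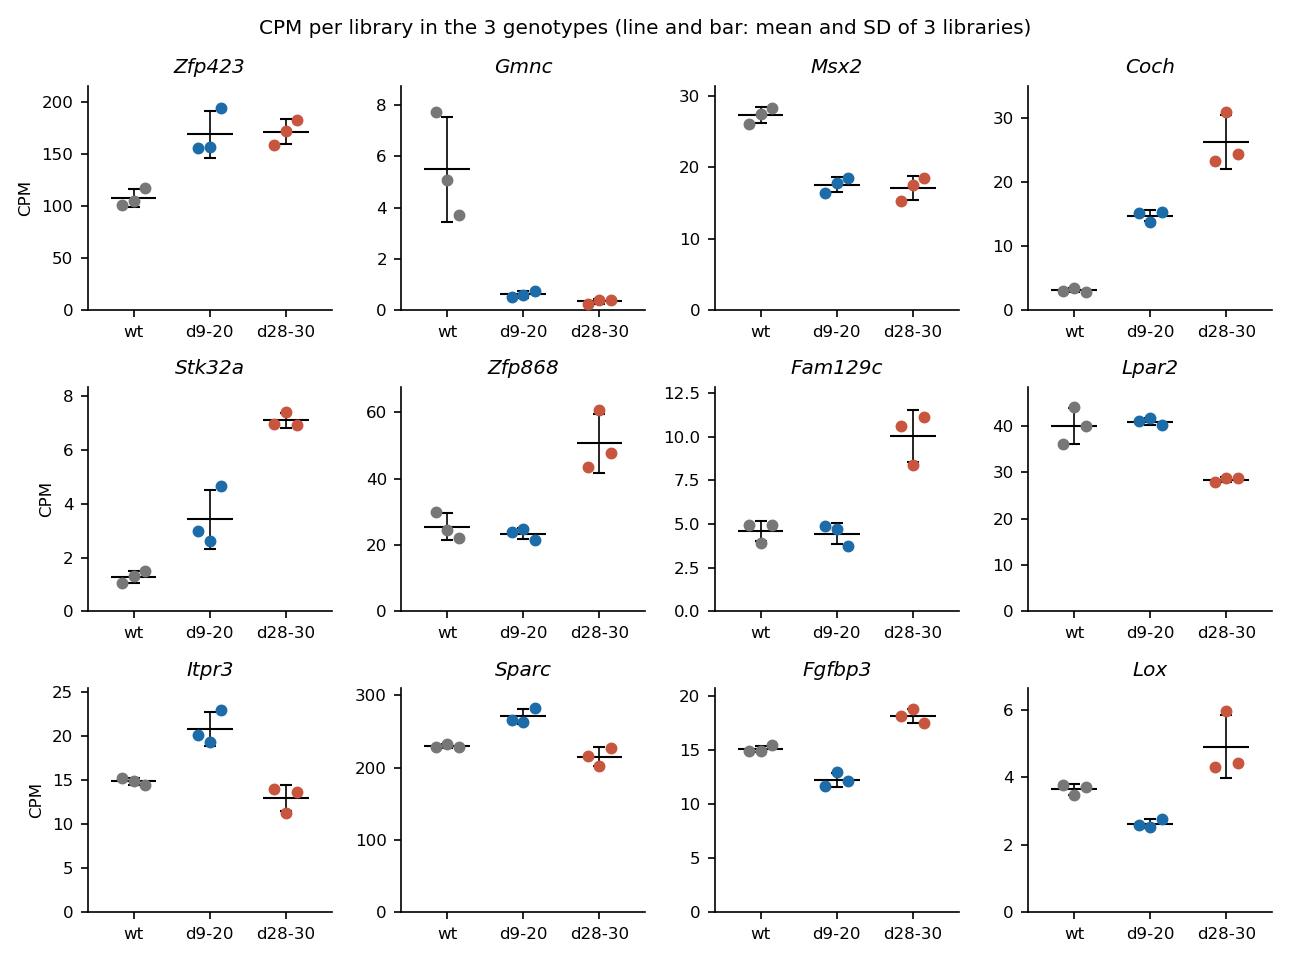
CPM per library for 12 genes in wt, d9-20 and d28-30, on axes that start at 0; points are libraries, the line is the mean and the bar the SD of 3 libraries. Zfp423 and Msx2 show the 2 alleles at 1 level, Coch and Stk32a a step from d9-20 to d28-30, Zfp868, Fam129c and Lpar2 a shift of d28-30 alone, and Itpr3, Sparc, Fgfbp3 and Lox the alleles on either side of wt.

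The other named genes of the 24 were of mixed function. Sp6, a transcription factor gene of the SP family, was at 18.7 to 23.9 CPM in d9-20 and 10.8 to 13.2 CPM in d28-30 (difference 0.74), against 11.6 to 14.8 CPM in wt. Lpl, the lipoprotein lipase, was at 36.2 to 39.4 CPM and 22.2 to 30.1 CPM (0.58), and Phlda2, an imprinted gene known from the placenta, at 3.62 to 4.59 CPM and 1.65 to 2.08 CPM (1.12). Dctd, a deaminase of nucleotide synthesis, was at 81.8 to 85.3 CPM and 52.8 to 64.6 CPM (0.49). On the lower side, Pf4, a chemokine of megakaryocytes, was at 1.41 to 2.44 CPM in d9-20 and 4.46 to 5.66 CPM in d28-30 (-1.45). Edil3, an integrin-binding matrix protein, was at 6.81 to 7.76 CPM and 11.9 to 15.6 CPM (-0.86). Map2, a microtubule protein of neurons, differed by -0.71, and Skil, a repressor that binds SMAD proteins, by -0.55. Skil was at 55.6 to 57.8 CPM in d9-20, 75 to 97.5 CPM in d28-30 and 53.1 to 67.1 CPM in wt, so that d28-30 stood apart from both. No library of one allele overlapped the other allele in any of these genes, as the choice required.

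Promoter sequence of 3 of these genes is shown from RefSeq windows of the GRCm38.p6 build, which hold 250 bases before and 50 after the start. The 3 were picked from the genes whose windows hold a match to a string searched, and other genes hold one too. A window was found for 15 of the 24 genes. The strings below were searched on both strands: TCCC and GGGA with any 2 bases between, an EBF palindrome; GCACCC and GGGTGC with any 2 bases between, an inverted repeat known for ZFP423; GCACCC alone, a single arm that the repeat contains; and GGCGCC, a GC element known for SMAD proteins of the BMP pathway. Matches are in capitals below, in the strand of the gene, 5′ to 3′.
Coch (chr12:51593091-51593390, + strand): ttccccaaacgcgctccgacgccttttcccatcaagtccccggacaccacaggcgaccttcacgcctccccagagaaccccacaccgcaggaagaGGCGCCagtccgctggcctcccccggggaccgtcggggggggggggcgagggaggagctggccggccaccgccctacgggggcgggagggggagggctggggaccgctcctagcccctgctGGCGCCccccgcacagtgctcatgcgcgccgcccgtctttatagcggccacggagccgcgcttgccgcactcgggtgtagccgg
Itpr3 (chr17:27057054-27057353, + strand): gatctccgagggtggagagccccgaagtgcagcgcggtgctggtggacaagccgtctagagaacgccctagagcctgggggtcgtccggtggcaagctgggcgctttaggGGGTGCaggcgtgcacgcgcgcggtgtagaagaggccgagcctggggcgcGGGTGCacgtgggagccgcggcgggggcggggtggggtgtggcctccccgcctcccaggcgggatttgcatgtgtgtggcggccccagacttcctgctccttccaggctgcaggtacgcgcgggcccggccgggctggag
Lpar2 (chr8:69822315-69822614, + strand): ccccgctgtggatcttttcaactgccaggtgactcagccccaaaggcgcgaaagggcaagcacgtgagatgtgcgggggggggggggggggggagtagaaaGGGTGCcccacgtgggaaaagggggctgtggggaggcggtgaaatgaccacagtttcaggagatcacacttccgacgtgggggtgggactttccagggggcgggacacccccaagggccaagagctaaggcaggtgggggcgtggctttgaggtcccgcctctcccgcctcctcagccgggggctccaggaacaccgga
In the Coch window the capitals mark 2 copies of GGCGCC, and in those of Itpr3 and Lpar2 copies of the single arm read on the other strand. Of the 15 genes, 3 held GGCGCC (Coch, Phlda2 and Des), 3 held GCACCC and 0 held either palindrome. Zfp868 and Fgfbp3, with smaller p than Itpr3 and Lpar2, have windows with no match. Of all 32851 windows, 11.9% held GGCGCC, 15.7% held GCACCC, 0.904% the EBF palindrome and 0.0244% the full repeat. Some genes have several windows and were counted if any held a match, so the gene counts and these shares are unlike measures. A match of letters is a description and no site of binding.

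Genes in 1 stretch of chromosome 8 stood out, a window chosen after the values were seen. Distances were taken from the lower coordinate of Zfp423, which is on the minus strand, and "before" means towards lower coordinates. Of 123 tested genes at 10 to 20 Mb before Zfp423, 38 (30.9%) had an unadjusted p under 0.05 between the alleles, 27 higher and 11 lower in d9-20, against 9.58% of all genes. All 38 lay 15.1 to 19.97 Mb from it, with log2 differences of 0.17 to 2.26 in size. The same window had 28 genes (22.8%) at this p for d28-30 against wt and 6 (4.88%) for d9-20 against wt, against 8.08% and 5.96% of all genes. Next to Zfp423 the share was lower: within 10 Mb before it, 5 of 99 genes (5.05%) had such a p between the alleles, while each allele had 21.2% (d9-20) and 20.2% (d28-30) of these genes against wt. A second stretch, at 30 to 40 Mb before Zfp423, had 6 of 21 genes (28.6%) at this p between the alleles, 4 (19%) for d28-30 against wt and 0 for d9-20 against wt, and Dctd lies there. Without d28-30 replicate 2, 34 of 124 window genes (27.4%) had an unadjusted p under 0.05, and the lowest share with any library left out was 19.4%, without d9-20 replicate 2.

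Of the 24 genes of smallest p, 7 were on chromosome 8 and 6 in this window, namely Zfp868, Fam129c, Lpar2, Upf1, Lpl and the unnamed model Gm10654. Chromosome 8 held 784 of the 15695 tested genes, and 123 of these were in the window. Since the window was chosen after the same p-values were seen, these 6 genes are no separate evidence for it. Other genes there, singled out after their values were seen, included Pbx4, a homeobox cofactor gene, at 6.73, 7.01 and 8.28 CPM in d9-20, 5.12, 3.79 and 4.34 CPM in d28-30 and 6.34 to 8.89 CPM in wt. Its d28-30 libraries lay below all others. Rfxank, a subunit of the RFX complex that activates MHC class II genes, was at 26.5 to 28.2 CPM in d9-20 and 16.6 to 21.7 CPM in d28-30, against 23.4 to 26.2 CPM in wt. Bst2, an interferon-induced membrane protein, was at 1.92 to 2.77 CPM in d9-20 and 1.24 to 1.47 CPM in d28-30, against 2.31 to 2.78 CPM in wt. Cherp, an RNA-processing gene, was at 226 to 231 CPM, 163 to 198 CPM and 195 to 225 CPM in the same order. All libraries are labelled C57BL/6N. Reads were not examined here, and sequence differences between the lines in this stretch, which could alter levels or counting, were not tested.

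**Figure D4:**
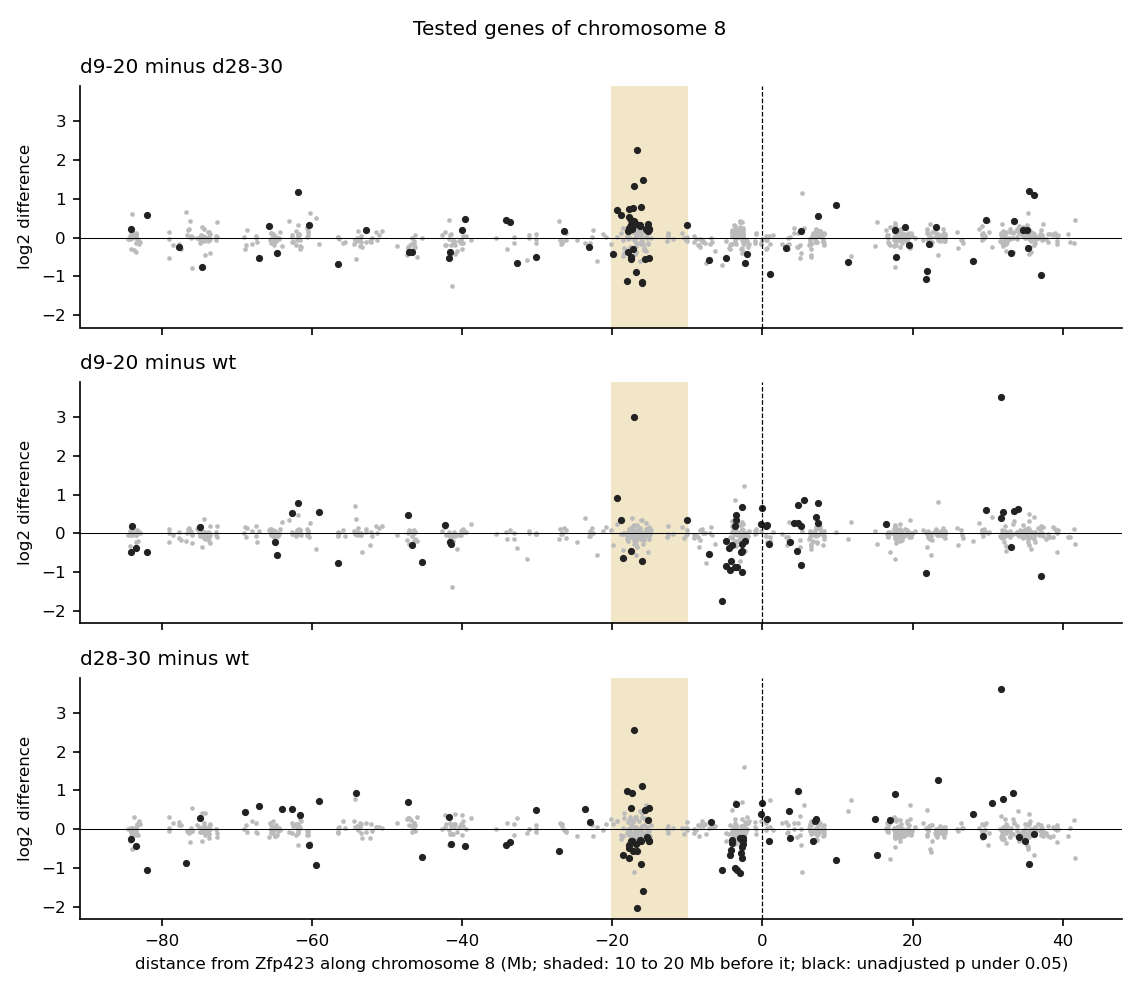
Tested genes of chromosome 8 by distance from the lower coordinate of Zfp423 in Mb (x axis) and log2 difference (y axis) for the alleles against each other and for each allele against wt; black points have an unadjusted p under 0.05. The shaded window holds 38 black points of 123 between the alleles, 6 for d9-20 against wt and 28 for d28-30 against wt, and the stretch just before Zfp423 holds 5 of 99 between the alleles.

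Gene groups were described by the count of members with an unadjusted p under 0.05 and by the median log2 difference, beside 9.58% and -0.01 over all genes tested. Counts without d28-30 replicate 2 stand beside 7% of all genes in that fit. In the edgeR fit no member of any group passed the threshold after adjustment. Newborn neuron genes had the longest run of members on 1 side: 28 of 29 tested were lower in d9-20, against 51.6% of all genes, the median was -0.52 and 17 (58.6%) had an unadjusted p under 0.05, all lower. Without d28-30 replicate 2, all 29 were lower, 17 had such a p and the median was -0.55. Over the 22 alternative fits the median ran from -0.73 to -0.36. Counts at this p with any other library left out were not taken. Their summed level was 949, 799 and 1284 CPM in d9-20, 1549, 1485 and 1398 CPM in d28-30, and 1506, 983 and 1348 CPM in wt. The alleles did not overlap, but wt spanned most of both ranges, and wt replicate 2 lay among the d9-20 libraries. The median against wt was -0.23 in d9-20 and 0.20 in d28-30.

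Among these neuron genes, Elavl4, an RNA-binding protein of new neurons, was at 40.4, 35.5 and 44.9 CPM in d9-20, 64.9, 85.4 and 61.9 CPM in d28-30 and 64.2, 41.9 and 45.4 CPM in wt. The alleles were apart and wt covered the gap, with a difference of -0.81 ± 0.17 (adjusted p = 0.245). Neurod4, a proneural transcription factor gene, was at 15.1 to 17.4 CPM in d9-20 and 23.5 to 35.6 CPM in d28-30, against 15.1 to 24 CPM in wt (difference -0.84, adjusted p = 0.277). Map2 was at 55.1 to 60.6 CPM and 83.4 to 109 CPM, against 59.2 to 91.5 CPM in wt. Dcx, the microtubule protein doublecortin of migrating neurons, was at 32.5, 20.2 and 42.2 CPM in d9-20, 61.2, 78.6 and 52.5 CPM in d28-30 and 30.7 to 63.4 CPM in wt, with a difference of -1.02 (adjusted p = 0.392). Stmn2, a stathmin of growing axons, differed by -0.90 (adjusted p = 0.392). Tubb3, a neuronal tubulin, overlapped between the alleles at 139 to 266 CPM and 180 to 291 CPM. With DESeq2, 6 of the 29 passed the threshold, all lower, beside 79 of 15694 genes in that fit, 42 of them lower. With library quality weights in limma-voom 4 of the 29 passed, all lower, beside 88 of 15695 genes. Limma-voom without weights called 0 genes. Dcx, Stmn2 and Tubb3 were chosen after their values were seen. A different share of neurons and a different level of RNA per neuron, in either allele, cannot be told apart in bulk tissue. Differences in embryo stage were not tested.

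The EBF genes, whose proteins are partners of the last zinc fingers, belong to the same list. Ebf3 was at 45.6, 46.4 and 55.8 CPM in d9-20, 65.7, 77.4 and 64.6 CPM in d28-30 and 48.4 to 67.5 CPM in wt, with a difference of -0.49 ± 0.13 (adjusted p = 0.379). Ebf2 was at 34.2 to 42.0 CPM and 46.3 to 52.7 CPM, with a difference of -0.34, and Ebf1 at 23.4 to 31.4 CPM and 33.0 to 39.6 CPM, with a difference of -0.36. The alleles did not overlap in any of the 3, and the wt ranges overlapped both. Synaptic genes had 12 of 18 lower in d9-20, with a median of -0.27 and 5 at an unadjusted p under 0.05. Among them were Syt1, a calcium sensor of vesicle release (-0.90), and Snap25, part of the vesicle fusion complex (-0.96). The summed synaptic level overlapped between the alleles, at 131.5 to 146.9 CPM in d9-20 and 128.4 to 146.1 CPM in d28-30. In wt it was 117.9 to 132.7 CPM. The median ran from -0.44 to -0.21 over the alternative fits. Cranial motor neuron genes had a median of -0.34 with 10 of 12 lower and 1 at this p (11 of 12 and 3 without d28-30 replicate 2). Neural progenitor genes had a median of -0.0041, with 9 of 19 higher (0.02 and 13 of 19 without d28-30 replicate 2). At this p 2 of them were higher and 3 lower (26.3%, against 9.58% of all genes). Without d28-30 replicate 2 these were 3 higher and 2 lower. Cell cycle genes had a median of 0.02, with 15 of 25 higher and 2 lower at this p (8%).

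Genes of the boundary between midbrain and hindbrain leaned to d9-20. Of 19 isthmus organizer genes 16 were higher, against 48.4% of all genes, 7 of them (36.8%) at an unadjusted p under 0.05, and the median was 0.20. Fgf8, the FGF that patterns both sides of the boundary, was at 8.35, 9.38 and 11.2 CPM in d9-20, 6.78, 5.68 and 7.88 CPM in d28-30 and 6.15 to 8.28 CPM in wt. The d9-20 libraries were above all d28-30 libraries, by a difference of 0.51 ± 0.17 (adjusted p = 0.437). Pax2, a transcription factor upstream in this region, was at 10.1 to 11.7 CPM, 7.58 to 8.49 CPM and 7.07 to 9.24 CPM in d9-20, d28-30 and wt, with a difference of 0.41. Wnt1, a ligand of the boundary and the dorsal midline, was at 16.7, 19.8 and 15.6 CPM in d9-20, 14.0, 8.71 and 12.7 CPM in d28-30 and 20.2 to 27.7 CPM in wt. Both alleles lay below wt and d28-30 lowest, with a difference of 0.57 (adjusted p = 0.431), and the gene was chosen after its values were seen. The list had 17 of 19 higher without d28-30 replicate 2, with 8 higher and 1 lower at this p.

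Of 12 rhombomere regulators 8 were higher, with a median of 0.12, and 3 had an unadjusted p under 0.05. Without d28-30 replicate 2 there were 4 higher and 1 lower at this p. Egr2, which specifies alternate rhombomeres, was at 6.23, 10.4 and 4.61 CPM in d9-20, 2.94, 3.12 and 3.32 CPM in d28-30 and 4.78 to 9.59 CPM in wt. The d28-30 libraries were below every other library, with a difference of 1.17 ± 0.33 (adjusted p = 0.392). Gbx2, a hindbrain homeobox gene of the boundary, was at 10.1 to 14.1 CPM and 8.07 to 9.47 CPM, and Hoxb1, which marks a single rhombomere, at 19.6 to 20.7 CPM and 15.4 to 18.9 CPM, with differences of 0.40 and 0.26. Of 17 retinoic acid genes 6 were higher at an unadjusted p under 0.05 and 1 was lower. Crabp1, a binding protein of retinoic acid, was at 872 to 1083 CPM and 684 to 868 CPM (difference 0.31). Aldh1a2, the enzyme that makes retinoic acid, was the 1 lower gene and was named after its values were seen, at 0.151 to 0.564 CPM in d9-20 and 0.589 to 1.59 CPM in d28-30. The counts for retinoic acid genes became 4 higher and 1 lower without d28-30 replicate 2, and their median 0.05 in place of 0.14.

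For most groups tied to the known partners and phenotypes of ZFP423, medians lay between -0.10 and 0.06. Rhombic lip and dorsal progenitor genes lay outside this range, with a median of -0.17 and 16 of 20 lower. EBF factors and ZFP423 relatives had a median of -0.02, with 3 of 7 (42.9%) at an unadjusted p under 0.05, all lower in d9-20. BMP ligands, receptors and antagonists had a median of -0.01 with 3 of 24 at an unadjusted p under 0.05, and SMADs and BMP target genes one of -0.02 with 2 of 19, both lower. Bmp2, a BMP ligand, was at 4.23 to 6.86 CPM in d9-20 and 2.61 to 3.91 CPM in d28-30 (difference 0.69, interval 0.04 to 1.34), and Id4, an inhibitor of differentiation that BMP induces, at 8.98 to 12.3 CPM and 13.5 to 20.1 CPM (-0.60, interval -0.99 to -0.22). Roof plate genes had a median of 0.04 with 3 of 16, and Lmx1a, the roof plate determinant, was at 14.7 to 15.1 CPM in d9-20, 15.3 to 21.2 CPM in d28-30 and 21.2 to 24.4 CPM in wt. Choroid plexus epithelium genes had a median of -0.10 with 7 of 12 lower, 1 of them at this p, and multiciliation genes one of -0.08 with 15 of 20 lower, 2 of them at this p. Without d28-30 replicate 2 these medians were 0.02 and -0.02, with 2 and 0 genes at this p, and the roof plate median was -0.06. Joubert and primary cilium genes, named for the human syndrome, had 0 of 23 at this p, and their log2 differences lay between -0.23 and 0.17. Hedgehog genes had a median of 0.06 with 11 of 13 higher, 2 of them at this p. Without d28-30 replicate 2 they had 8 of 13 higher and a median of 0.07. Notch genes had a median of -0.01 with 1 of 17 at this p (-0.08 and 0 without d28-30 replicate 2).

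Erythroid and macrophage genes, from other cells in the dissected tissue, were mostly lower in d9-20, and none passed the threshold in the edgeR fit. The summed wt levels of both lists overlapped those of both alleles. Of 16 erythroid genes 15 were lower in d9-20 and 5 had an unadjusted p under 0.05, with a median of -0.35 and a summed level of 3929 to 4530 CPM in d9-20, 4736 to 6836 CPM in d28-30 and 4425 to 8157 CPM in wt. The median was -0.46 and 8 had such a p without d28-30 replicate 2. Of 11 macrophage genes 10 were lower, 2 of them at this p, with summed levels of 10.5 to 13.6 CPM, 15.4 to 19.9 CPM and 12.8 to 20.0 CPM. Mrc1, the macrophage mannose receptor, was at 0.606 to 0.752 CPM in d9-20 and 1.51 to 2.00 CPM in d28-30, and Csf1r, the receptor for macrophage growth factor, at 0.807 to 1.46 CPM and 1.95 to 2.89 CPM. In a fit with the erythroid share as a covariate, 16.1% of all genes had an unadjusted p under 0.05. In it 27 of 29 neuron genes lay below 0, 13 of them (44.8%) at this p, the isthmus list had 4 of 19 at this p (21.1%), and the surface ectoderm list had 2 higher and 1 lower of 17 (17.6%) with a median of 0.13. The part of macrophage RNA in the results was not tested.

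Surface ectoderm, neural crest and glycolysis genes were on the side of d9-20. Of 17 surface ectoderm and otic genes 13 were higher, with a median of 0.32 and 8 higher and 1 lower at an unadjusted p under 0.05, and summed levels of 396 to 471 CPM in d9-20, 372 to 405 CPM in d28-30 and 374 to 502 CPM in wt. Krt19, an epithelial keratin, was at 10.3 to 12.5 CPM and 6.4 to 7.66 CPM, and Oc90, an otoconial protein of the inner ear, ran against the list at 3.19, 0.757 and 3.85 CPM in d9-20 and 5.24, 5.89 and 9.11 CPM in d28-30. Without d28-30 replicate 2 the list had 16 of 17 higher, with 4 higher and 1 lower at this p, and with the erythroid covariate it had 2 higher and 1 lower. Of 15 neural crest genes 10 were higher and 5 had an unadjusted p under 0.05. Sox10, the transcription factor of migrating crest and glia, was at 79.1, 79.1 and 76.5 CPM in d9-20, 62.0, 44.7 and 60.0 CPM in d28-30 and 62.0 to 62.2 CPM in wt. Its d9-20 libraries stood above all others, by 0.49 ± 0.11 over d28-30 (adjusted p = 0.277; past the threshold with DESeq2). Foxd3, an early crest gene, differed by 0.54 and Erbb3, a neuregulin receptor of crest-derived glia, by 0.45.

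Glycolysis and hypoxia genes had 20 of 24 higher in d9-20, 9 of them (37.5%) at an unadjusted p under 0.05, and a median of 0.17. The count at this p was lower without d28-30 replicate 2, at 3 higher and 1 lower (16.7%), against 7% of all genes in that fit. The median was then 0.12. Slc2a3, a glucose transporter, was at 422, 515 and 332 CPM in d9-20, 276, 256 and 258 CPM in d28-30 and 270, 479 and 263 CPM in wt. The wt replicate 2 was in the range of d9-20 and the other wt libraries in that of d28-30. Lin28a, an RNA-binding protein of early embryonic cells that falls with developmental age, also had wt replicate 2 within the d9-20 range, at 476, 566 and 389 CPM in d9-20, 330 to 360 CPM in d28-30 and 352, 503 and 367 CPM in wt. Its difference between the alleles was 0.47 ± 0.15 (adjusted p = 0.431). The stage of the embryos is given as day 9.5 for all libraries, and differences in stage within that day were not tested.

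**Figure D5:**
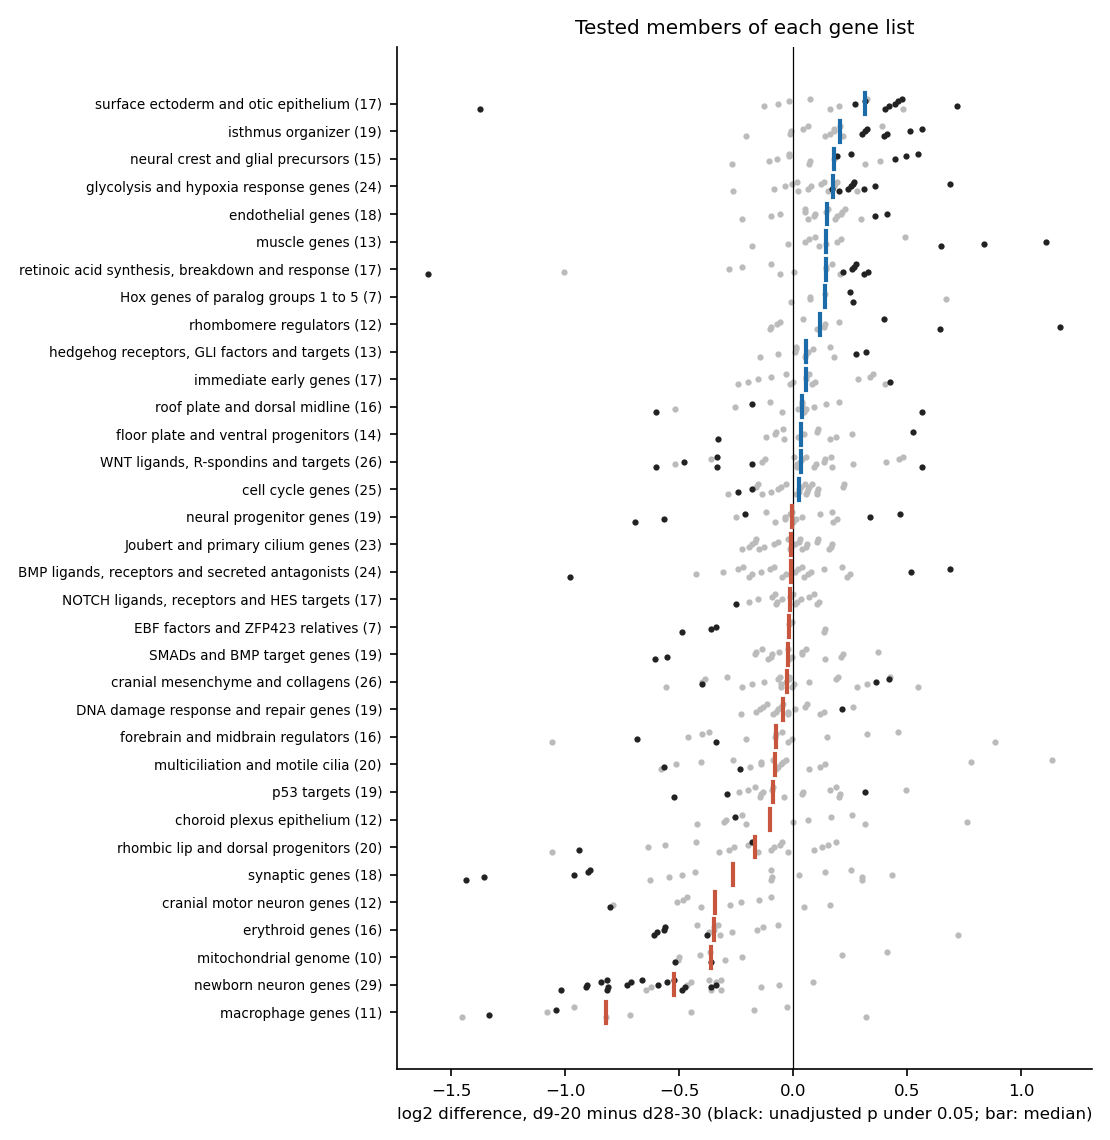
Log2 difference d9-20 minus d28-30 of the tested members of each gene list (number of members in parentheses), with black points for an unadjusted p under 0.05 and a bar at the median, blue above 0 and red below. Newborn neuron genes lie almost wholly below 0 with a median of -0.52, isthmus and surface ectoderm genes lie mostly above 0, and BMP, SMAD and primary cilium genes are centred near 0.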

How the data were processed

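The deposited values are raw read counts per gene that the authors made from stranded single-end reads of 75 nt, per the labels' protocols; STAR 2.5.3a, featureCounts, limma and the GRCm38 build are named in the submitters' processing notes. Counts were tested as deposited with edgeR 4.0.16 in R 4.3.3 (filterByExpr, TMM scaling, quasi-likelihood test, Benjamini-Hochberg adjustment over 15695 genes), in 1 fit of 9 libraries with genotype as the factor and the contrast d9-20 minus d28-30. Levels are CPM on TMM-scaled library sizes. The steps were tested on simulated data. Totals per library ran from 16903382 to 24216412, and intervals and floors cover what the fit and counting allow.

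The genes named are those past an adjusted p of 0.05 against wt in either allele, the 24 of smallest p between the alleles whose libraries did not overlap and whose mean CPM was 1 or more, Zfp423, and up to 4 members of smallest p from each of 38 gene lists; others are marked as chosen after their values were seen. The compared groups and the lists were chosen with earlier results of these data known. Positions are from GENCODE M21 and covered 97.1% of tested genes. Alternatives were other scalings and filters, DESeq2 1.42.0, limma-voom (limma 3.58.1) with and without library quality weights, robust estimation, the mutant libraries alone, a replicate block, covariates for Y-linked and erythroid counts, and leaving out each library. Of the genes that the rule names, 2 are not reported here.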

Additional observations from a re-analysis of the deposited data

Results flagged for a closer look

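In 4 of the genes of smallest p, every d9-20 library lay on one side of every wt library and every d28-30 library on the other. The log2 difference d9-20 minus d28-30 was 0.33 for Sparc, 0.68 for Itpr3, -0.90 for Lox and -0.57 for Fgfbp3. The difference between the alleles missed the threshold in the edgeR fit, with adjusted p of 0.236, 0.144, 0.216 and 0.144 in that order, and the opposite direction against wt was not tested beyond it. An order of this kind was seen in 38 of 15695 genes.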

How the results depend on the processing

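The count of 0 calls between the alleles was 133 with no count filter (28389 genes), 79 with DESeq2 and 88 with limma-voom with library quality weights, and the cause was not tested. It ran from 0 to 4 when 1 library was left out, with 4 without d28-30 replicate 2 and 1 without wt replicate 3, and was 0 under the other scalings, the stricter filter, limma-voom, robust estimation, the mutant libraries alone and both covariates. Replicate numbers were not used as pairing in the main fit. The correlation of deviations of same-numbered d9-20 and d28-30 libraries was 0.0951, 0.162 and 0.229. For libraries of different number it ran from -0.278 to 0.136, and d9-20 replicate 1 correlated best with d28-30 replicate 2 (0.136). With the replicate block the count was 2 (Zfp868 and Gm7809), in 9 and in 6 libraries. In the 9 libraries 2328 genes (14.8%) then had an unadjusted p under 0.05, against 9.58% in the main fit. Whether the replicate numbers mark a batch was not tested. The number of genes with an interval within 1.5-fold stayed between 9115 and 11754. The chromosome 8 window held 24 to 39 genes at an unadjusted p under 0.05 when 1 library was left out, with 24 without d9-20 replicate 2. Small differences changed sign when 1 library was left out: Zfp423 ran from -0.13 to 0.031, Msx2 from -0.032 to 0.094 and Grem1 from -0.077 to 0.22, and Grem1 was -0.16 with the erythroid covariate. Fewer genes under 10 CPM had an interval within 1.5-fold, and whether depth or the spread between libraries sets this was not tested.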

Other observations

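Genes of the placental prolactin family, looked at after their values were seen, were at low levels in hindbrain libraries. Of 25 such genes 5 passed the count filter, some of them largely through the d9-20 libraries where they were highest, so no count of differences over them is given. The family's summed level was 6.13, 6.11 and 14.3 CPM in d9-20, 0.825, 2.74 and 1.24 CPM in d28-30, and 3.49, 4.62 and 1.65 CPM in wt, so the alleles did not overlap in the sum. Not every member was apart: Prl3b1 had 21, 16 and 21 counts in d9-20 and 8, 15 and 22 counts in d28-30. Cyp11a1, a steroid-synthesis enzyme known from placenta among other tissues, was at 0.962, 1.41 and 6.54 CPM in d9-20 and 0.0442 to 0.379 CPM in d28-30. The part of trophoblast RNA in other differences was not tested.

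Other gene lists had these values between the alleles. WNT genes had a median log2 difference of 0.03 with 1 higher and 5 lower of 26 at an unadjusted p under 0.05 (3 higher and 3 lower without d28-30 replicate 2). Rhombic lip and dorsal progenitor genes had a median of -0.17 with 16 of 20 lower, 2 of them at this p. Muscle genes had a median of 0.14 with 3 of 13 higher at this p (1 without d28-30 replicate 2), and endothelial genes one of 0.15 with 2 of 18 (median 0.02 without it). Cranial mesenchyme and collagen genes had a median of -0.03, p53 targets one of -0.09, DNA damage genes one of -0.04, and immediate early genes one of 0.06. Without d28-30 replicate 2 these 4 medians were 0.01, -0.03, 0.02 and -0.02. Forebrain and midbrain regulators had a median of -0.08, and floor plate genes one of 0.03, which were -0.29 and -0.06 without that library. Genes of the mitochondrial genome had a median of -0.36, which was -0.09 without d28-30 replicate 2.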
